A study of Homo sapiens with 5 samples.

Results

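The genes described here handle zinc in the cell, namely the metallothioneins, the zinc transporters of the SLC30A and SLC39A families, and MTF1. Members were the rows of the deposited gene table whose description begins with metallothionein, whose symbol begins with SLC30A or SLC39A, or whose symbol is MTF1. This gave 40 of 33857 listed genes, made up of 16 metallothionein genes and pseudogenes, 10 SLC30A genes, 13 SLC39A genes and MTF1. The comparison asked whether the fall of metallothionein mRNA after editing of CFIm25 went with changes of other zinc genes.

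The data are poly(A+) RNA-seq of 5 samples of H9, a line of human embryonic stem cells, grown in mTeSR medium. CFIm25, encoded by NUDT21, is a subunit of the cleavage factor that helps choose the 3′ end of mRNAs. The 2 mock control samples (labelled control KO) were cells that had received the CRISPR/Cas9 vector without a guide RNA. The mock controls were picked clones as well. The 3 CFIm25-m samples (labelled CFIm25 KO) were clones edited with 3 different guide RNAs near the start codon of NUDT21. The edited clones are not full knockouts, since each kept at least 1 allele with an in-frame deletion and made a small amount of a shortened protein. After puromycin selection, single-cell clones were expanded, and no later treatment of these samples is described. Each CFIm25-m sample is 1 clone, so the spread among them mixes clone and editing. The p-values rest on the spread between these samples alone, which the fit pools in part across all tested genes.

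Metallothioneins are small proteins rich in cysteine that bind zinc, copper and cadmium and buffer free zinc. SLC30A proteins, also called ZnT, move zinc out of the cytosol, either across the plasma membrane or into organelles, and SLC39A proteins, also called ZIP, move zinc into the cytosol. MTF1 is a zinc finger transcription factor that senses zinc and activates metallothionein genes and SLC30A1 through metal response elements in their promoters.

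The coding sequences show how alike the metallothioneins are, which bears on how their reads can be told apart. In GENCODE release 44 transcripts, as mapped to GRCh37, each of the 7 metallothionein genes called lower below has a coding sequence of 186 bases with 61 codons before the stop, 20 of them for cysteine. Over the 21 pairs of the 7 coding sequences, identity ran from 88.7% to 95.2%, with a median of 91.9%. No stretch of 150 bases, the length of 1 sequenced read, was shared exactly between transcripts of any of the 16 metallothionein rows, while stretches of 50 bases were shared by 12 of the 16. How reads that match several genes were counted was not given in the sources used here, so the division of reads between single metallothionein genes is uncertain and the sum of the family is given beside them.

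Metal response elements were searched in the 250 bases before RefSeq transcription starts (GRCh38.p14), as the 7 letters TGCACNC or TGCGCNC on either strand. Windows were searched for 24 of the members, namely MT1H, MT2A, MT1X, 20 zinc transporters and MTF1. The promoter set used had no entry for MT1G, MT1E, MT1F or MT1M, so their matches are not known. The transporters SLC39A4, SLC39A14 and SLC30A8 were left out of the search, so their matches are not known. The 30 bases with the most matches are printed for the 3 metallothioneins, with SLC30A1 as the transporter known as an MTF1 target, and capitals mark the matches.
MT1H: TGCGCCCgacccgtctgcTGCGCACagccc
MT2A: TGCGCCCggcccagTGCGCGCggccgggtg
MT1X: ggcggggcctcTGCGCCCggccctcttccc
SLC30A1: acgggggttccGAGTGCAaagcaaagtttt
They lie at chr16:56669670-56669699, chr16:56608431-56608460 and chr16:56682406-56682435 on the plus strand and at chr1:211579192-211579221 on the minus strand. The whole window held 8 matches in MT1H, 7 in MT2A and 4 in MT1X, and no match shared a base with another. SLC30A1 had 1 match, on the reverse strand, and MTF1 had 0. Of the 20 transporters searched, 10 had no match in any of their windows and the others had at most 3. The RefSeq starts were not always near the deposited gene starts. The nearest lay 385 bases away in MT2A, 80981 in SLC39A10 and 85776 in SLC39A8, so other promoters of such genes were not searched. Of all 35116 RefSeq windows, 24.8% held at least 1 match and 0.37% held at least 4. These matches are a description of letters, and binding was not measured.

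Depth was 18754108 to 23372391 reads assigned to genes per sample, recovered as whole reads from the deposited values. NUDT21, the edited gene, was at 6503 and 6398 in mock control and at 4035, 3281 and 3400.2 normalised reads in CFIm25-m, which is -0.86 on the log2 scale (adjusted p = 0.00431, limma-trend, Benjamini-Hochberg over all tested genes). Its call was lost without mock control 1 (adjusted p = 0.0854) or mock control 2 (adjusted p = 0.0722), and without the mean-variance trend (adjusted p = 0.106). The stem cell markers POU5F1, SOX2, NANOG, LIN28A, DNMT3B, TDGF1, L1TD1 and SALL4 ranged from 852 to 57449 over the samples; none was called by limma-trend, 3 had an unadjusted p under 0.05, and DESeq2 called 1 and edgeR 0. Of these 8 markers 6 were lower, with a median log2 change of -0.26. Every clone was below both controls in 4 of the 8 and above both in 2, beside 19.8% and 17.0% of all tested genes. Of 22 markers of other cell types, 6 were tested and 0 were called by limma-trend, with 2 (COL1A1 and COL1A2) at an unadjusted p under 0.05 and 1 called by DESeq2. COL1A1 and COL1A2 moved in opposite directions, at -0.42 and 0.34 on the log2 scale. SOX1, the tested neuroectoderm marker, was at -0.99 (adjusted p = 0.376) with 4.81 to 20.3 over the samples and every clone below both controls. COL1A1, at 5749 to 8705, and VIL1, at 112 to 283, were well detected, while SOX17, FOXA2, CDX2, DCN and LUM had 0 to 2 reads in every sample. Other markers were not absent. The list of 4 endoderm markers, with 0 tested, reached 17 reads, and the untested neuroectoderm markers reached 10 reads. The tested mesoderm marker reached 29.8 and was at 0.34 on the log2 scale (adjusted p = 0.803, limma-trend).

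All values below are normalised read counts, that is, reads assigned to a gene divided by a size factor of the sample. A gene was tested where at least 2 samples reached 10, and it was called at an adjusted p below 0.05. Of 19232 tested genes, 180 were called lower in CFIm25-m, which is 0.936%, and 181 higher, which is 0.941%. The groups did not overlap, with every CFIm25-m sample lower, in 19.8% of tested genes, and with every CFIm25-m sample higher in 17.0%. An unadjusted p under 0.05 in limma-trend was found in 2911 tested genes, which is 15.1%, and counts of such genes below and above are to be set against that share.

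Of the 40 members, 28 were tested. Metallothionein genes were called lower, while neither a zinc transporter nor MTF1 passed the threshold. These are bulk samples, so a smaller number of expressing cells and less mRNA in each cell cannot be told apart. Of the 16 metallothionein rows, 8 were tested, 7 of these were called lower and none higher. Of the 24 transporter and MTF1 rows, 20 were tested, and 0 were called in either direction by limma-trend, with 2 (SLC39A4 and SLC39A7) at an unadjusted p under 0.05, a share below that of all tested genes (15.1%). DESeq2 called 1 of the 20, SLC39A4, and edgeR called 0. The median log2 fold change of the tested transporters was -0.07, beside -0.01 over all tested genes. MT1L and MT1M passed the filter on low values only through mock control, so a difference was built into their test, whereas MT1E, MT1F, MT1G, MT1H, MT1X and MT2A were above 10 in every sample.

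In mock control MT1G was the most abundant metallothionein both by count and per kilobase of its deposited gene length. Its normalised read count was 2209.5 and 1950.4 in mock control and 403, 449 and 300.1 in CFIm25-m. The highest edited clone stood far below the lower control, and CFIm25-m 3 was the lowest clone. The CFIm25-m mean was 18.5% of the mock control mean, and the 95% interval of the log2 change ran from -2.81 to -2.09.

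MT1X had 1276 and 1145 in mock control and 428, 432 and 370.3 in CFIm25-m. All 3 clones were lower than both controls, and their spread was narrow. Its log2 fold change was -1.56 (95% interval -1.82 to -1.30, adjusted p = 0.000228, limma-trend), which was the smallest fall among the 7 called metallothioneins.

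MT2A, the main metallothionein isoform in many human tissues, had 717 and 729.6 in mock control and 214, 185 and 136 in CFIm25-m. The controls differed little and every clone was lower. The log2 fold change was -2.04 (95% interval -2.45 to -1.63, adjusted p = 0.000731, limma-trend).

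MT1F had 652 and 613 in mock control and 148, 211 and 129 in CFIm25-m, a log2 change of -1.98 (adjusted p = 0.00129, limma-trend). MT1H had 394 and 339 in mock control and 70.2, 83.7 and 66.4 in CFIm25-m, a log2 change of -2.31 (adjusted p = 0.000298, limma-trend). In both genes the groups were far apart, with MT1F highest in CFIm25-m 2 among the clones.

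MT1E had 574 and 509 in mock control and 104, 107 and 51.9 in CFIm25-m. CFIm25-m 3 was the lowest clone, and the groups did not overlap. The log2 fold change was -2.68 (95% interval -3.32 to -2.05, adjusted p = 0.00196, limma-trend).

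MT1M was far lower, at 23.1 and 25.1 in mock control and 2.00, 6.30 and 2.89 in CFIm25-m, the last being 2, 7 and 3 reads. Its log2 fold change of -2.51 passed the threshold narrowly (adjusted p = 0.0437, limma-trend) and did not pass when every listed gene was tested (adjusted p = 0.0617) or without CFIm25-m 1 (adjusted p = 0.129), mock control 1 (adjusted p = 0.299) or mock control 2 (adjusted p = 0.331). MT1L, annotated as a transcribed pseudogene, had 19.6 and 18.3 in mock control and 7.02, 6.30 and 0.962 in CFIm25-m, the last being a single read. Every clone was lower, but its 95% interval was wide, from -3.49 to -0.59 on the log2 scale, and it was the metallothionein that was tested and not called (adjusted p = 0.174, limma-trend).

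**Figure D1:**
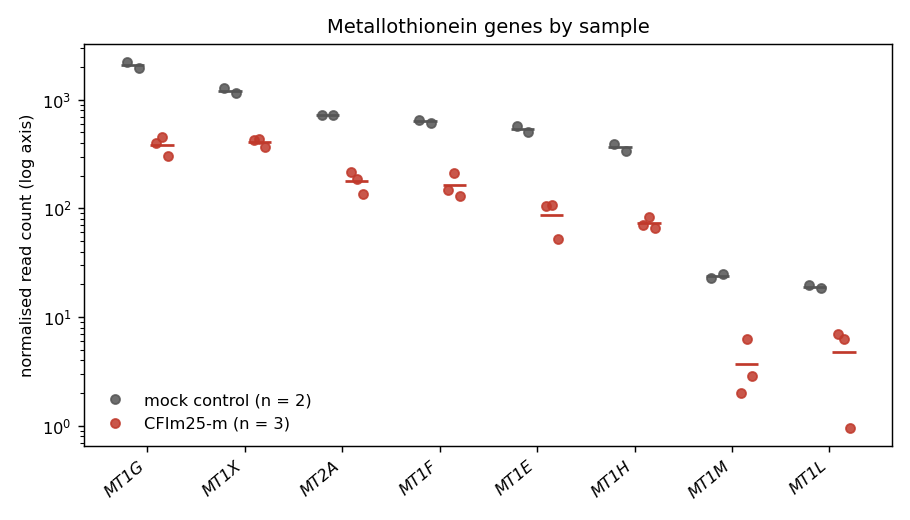
Normalised read count (log axis) of the 8 tested metallothionein genes, with a point for each sample and a horizontal bar for the group mean; mock control in grey (n = 2) and CFIm25-m in red (n = 3). In each gene all 3 CFIm25-m samples lie below both mock control samples, from MT1G (403, 449 and 300.1 against 2209.5 and 1950.4) down to MT1M and MT1L at a few reads.

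The other 8 metallothionein rows were too low to test, with 0 to 12 reads per sample. They are MT1A, MT1DP, MT1HL1, MT1IP, MT1JP, MT1P1, MT1XP1 and MT3. MT1JP, a pseudogene, had the 12 reads, in mock control 2, and 2 reads in mock control 1. MT3, the metallothionein known from brain, had 0 or 1 read in every sample. At these counts no difference could be detected.

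The sum of all 16 rows was 5879 and 5355 in mock control and 1388, 1491 and 1063 in CFIm25-m. Scaled to depth this was 272 and 247 RPM in mock control against 66.8, 70.9 and 52.9 RPM in CFIm25-m. The mean of CFIm25-m was 23.4% of that of mock control, and no clone came near a control sample. The exact two-sided permutation test over the samples gave p = 0.2, which is the smallest value that 10 arrangements of 2 and 3 samples can give here. Entered as 1 row in the fit across all genes, the family had a log2 change of -2.11 (95% interval -2.42 to -1.80, adjusted p = 0.000168, limma-trend). The fall of the family thus does not depend on how reads were divided between its copies.

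As counted, the make-up of the family signal differed between the groups, since the members did not fall equally. MT1G made up 37.6% and 36.4% of the summed signal in mock control and 29.0%, 30.1% and 28.2% in CFIm25-m. MT1X made up 21.7% and 21.4% in mock control and 30.8%, 29.0% and 34.8% in CFIm25-m. The share of MT1E was 9.76% and 9.50% in mock control and 7.51%, 7.19% and 4.89% in CFIm25-m. The groups did not overlap in any of these shares, with MT1G and MT1E taking less and MT1X taking more in every clone. Such separation was common, since the counts of 19.8% of all tested genes were lower in every clone and 17.0% higher. The shares are parts of the same sum, so a rise of MT1X and a fall of MT1G are not independent. They also rest on the division of reads between single metallothionein genes, which is uncertain.

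The share of MT1H was 6.70% and 6.33% in mock control and 5.05%, 5.62% and 6.24% in CFIm25-m, again lower in every clone, by a small margin. MT1F (11.1% and 11.4% against 10.7%, 14.1% and 12.1%) overlapped between the groups. The shares of MT2A (12.2% and 13.6% against 15.4%, 12.4% and 12.8%) overlapped as well. The ratio of MT1X to MT1G was 0.577 and 0.587 in mock control and 1.06, 0.962 and 1.23 in CFIm25-m. The exact two-sided permutation test of this ratio gave p = 0.2, again the smallest it can give. The genes were ordered MT1G, MT1X, MT2A, MT1F, MT1E and MT1H by mean count in mock control, and in CFIm25-m MT1X stood above MT1G by mean count, although in CFIm25-m 2 MT1G was the higher.

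Per kilobase of the deposited gene length, MT1G averaged 2773 in mock control and 512 in CFIm25-m. MT1X had 683 and 231, MT2A 557 and 137, MT1E 515 and 83.4, MT1H 507 and 102, and MT1F 335 and 86.1. On these lengths, 750 bases for MT1G and 1773 for MT1X, MT1G stayed ahead of MT1X in both groups. The length given for MT1X is its whole span from gene start to gene end, and that of MT1G is not. The order of the 2 genes in CFIm25-m therefore depends on the lengths used, since MT1X was ahead by mean count. The deposited length counts every annotated exon of a gene, so these levels are low estimates for genes with long minor transcripts.

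**Figure D2:**
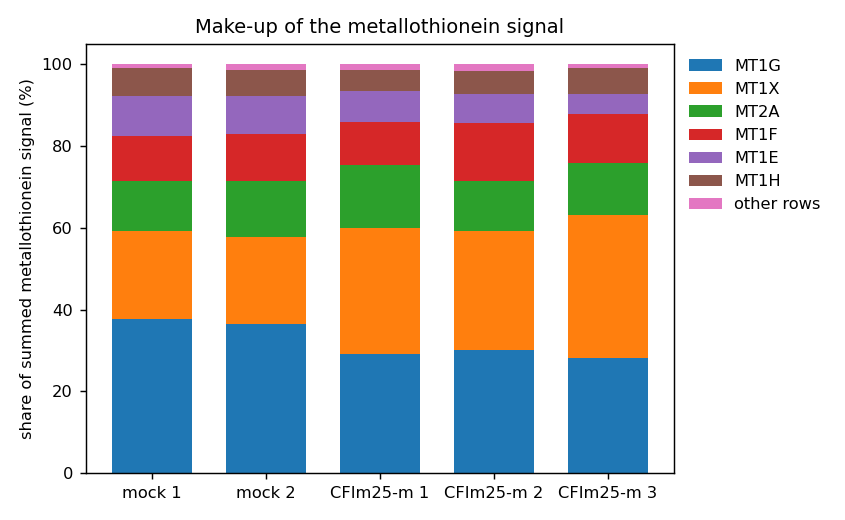
Share of the summed metallothionein signal (%) taken by each gene in each of the 5 samples, as stacked bars that add up to 100%; other rows are the 10 remaining metallothionein rows. MT1X takes 29.0% to 34.8% in the CFIm25-m samples and 21.4% to 21.7% in the mock control samples, while MT1G takes 28.2% to 30.1% and 36.4% to 37.6%.

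Among zinc exporters and vesicle loaders of the SLC30A family, 7 of 10 genes were tested, 0 were called by limma-trend and 0 had an unadjusted p under 0.05. SLC30A1, the plasma membrane exporter that MTF1 is known to activate, had 624 and 731 in mock control and 574, 609 and 543 in CFIm25-m. All 3 clones were lower than both controls, by a margin smaller than the gap between the controls. The log2 fold change was -0.23 (95% interval -0.49 to 0.03, adjusted p = 0.39, limma-trend).

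SLC30A5 and SLC30A6, which together form a transporter of the early secretory pathway, overlapped between the groups. SLC30A5 had 949 and 1031 in mock control and 861, 993 and 777 in CFIm25-m, with a log2 change of -0.18 (adjusted p = 0.515, limma-trend). SLC30A6 had 947 and 763 in mock control and 857, 814 and 792 in CFIm25-m, with a log2 change of -0.05 (adjusted p = 0.868, limma-trend). SLC30A7, which also loads zinc into the Golgi, had a log2 change of -0.07 (95% interval -0.32 to 0.18).

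SLC30A9, a mitochondrial zinc transporter and the most abundant of the family, had 1924 and 2023 in mock control and 2081, 1926 and 1833 in CFIm25-m. The values were interleaved and the log2 fold change was -0.02 (95% interval -0.23 to 0.19). SLC30A3, known from synaptic vesicles, had 191 and 237 in mock control and 165, 215 and 212 in CFIm25-m. SLC30A10, a manganese exporter, was near the filter at 7.02 to 20.2 and its interval was wide, from -1.07 to 1.09 on the log2 scale.

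SLC30A2, SLC30A4 and SLC30A8 were below the filter. SLC30A8, which loads zinc into insulin granules, had 4.61 and 4.83 in mock control and 0, 94.5 and 0.962 in CFIm25-m. The high value is that of a single clone, CFIm25-m 2, with 105 reads, and the other clones had 0 and 1 read. SLC30A2 and SLC30A4 had at most 8.02 and 1.15 in any sample.

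Among zinc importers of the SLC39A family, 12 of 13 genes were tested and 0 were called by limma-trend. The lowest adjusted p was that of SLC39A4, the importer of dietary zinc in the intestine, whose loss causes acrodermatitis enteropathica. It had 421 and 490.2 in mock control and 339, 181 and 193 in CFIm25-m. All 3 clones were lower than both controls, with CFIm25-m 1 nearer to the controls than to the other clones. The log2 fold change was -0.99 (95% interval -1.53 to -0.45, adjusted p = 0.0805, limma-trend), and the mean in CFIm25-m was 52.2% of mock control. The DESeq2 Wald test on whole reads called it (adjusted p = 0.00973), and so did limma-trend without CFIm25-m 1 (adjusted p = 0.0166).

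SLC39A7, which releases zinc from the endoplasmic reticulum, had 2782 and 2816 in mock control and 2314, 2442 and 2082 in CFIm25-m. The groups did not overlap and the controls were close together. The log2 fold change was -0.30 (95% interval -0.52 to -0.08, adjusted p = 0.184, limma-trend). Per kilobase it had the highest level of the transporters, averaging 984 in mock control and 801 in CFIm25-m.

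SLC39A14, an importer of zinc, manganese and iron, was the most abundant transporter by count. It had 4542 and 4347 in mock control and 3815, 4759 and 4079 in CFIm25-m, with the highest value in a clone. SLC39A10 and SLC39A6, a pair of plasma membrane importers that act together, were level between the groups. SLC39A10 had 3474 and 3549 in mock control and 3732, 3536 and 3397 in CFIm25-m, a log2 change of 0.02 (95% interval -0.18 to 0.22). SLC39A6 had 1097 and 1179 in mock control and 1252, 1119 and 1104 in CFIm25-m, a log2 change of 0.02 (95% interval -0.20 to 0.25).

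SLC39A8, which also carries manganese, had a log2 change of -0.04 (95% interval -0.35 to 0.27). For SLC39A13, found in the Golgi and in vesicles, it was -0.08 (95% interval -0.34 to 0.18). The value was -0.19 (95% interval -0.48 to 0.09) for SLC39A9, a Golgi transporter. SLC39A11 had -0.20 (95% interval -0.57 to 0.17) and SLC39A3 had -0.07 (95% interval -0.35 to 0.21). None of these groups was separated. SLC39A1 ran from 41.5 to 61.2 over the 5 samples without separation. SLC39A5 had 9.22 and 13.5 in mock control and 15.0, 14.4 and 17.3 in CFIm25-m, so every clone was higher, but its interval ran from -0.43 to 1.31 on the log2 scale. SLC39A2 had at most 2 reads in any sample.

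The values of MTF1 were 382 and 410.1 in mock control and 413, 455 and 396 in CFIm25-m. They overlapped between the groups, and the log2 fold change was 0.09 (95% interval -0.18 to 0.36, adjusted p = 0.769, limma-trend). The mRNA of the factor that activates metallothionein genes was therefore not detectably changed, and its protein and its zinc binding were not measured.

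**Figure D3:**
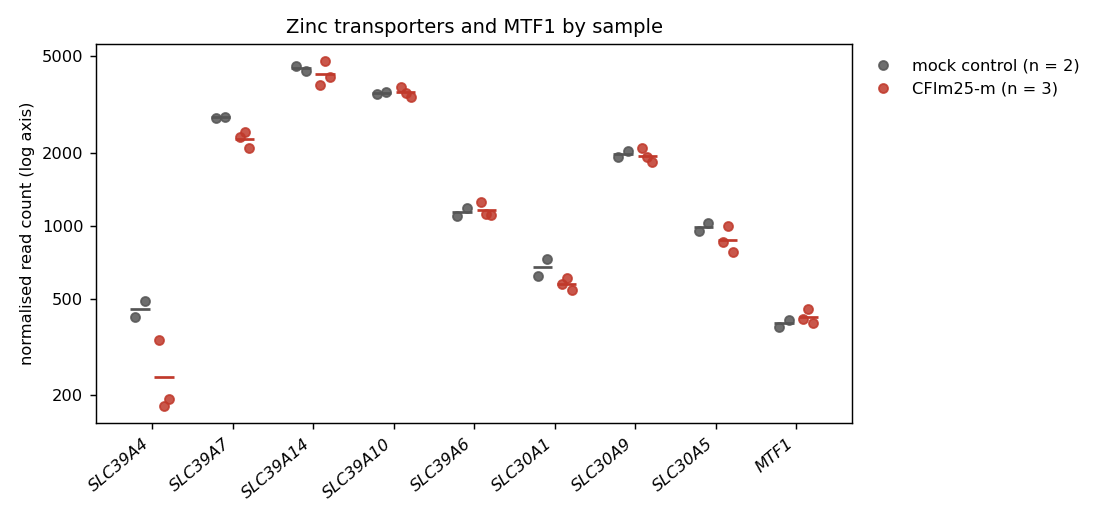
Normalised read count (log axis) of 8 zinc transporters and MTF1, with a point for each sample and a horizontal bar for the group mean; mock control in grey (n = 2) and CFIm25-m in red (n = 3). SLC39A4 (421 and 490.2 against 339, 181 and 193), SLC39A7 and SLC30A1 are the genes in which all 3 CFIm25-m points lie below the mock control points, and the others overlap.

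The intervals bound how far the transporters could have moved with the metallothioneins. In 18 of the 20 tested transporter and MTF1 genes, the lower end of the unadjusted 95% interval lay above -1 on the log2 scale. The other two were SLC39A4 and SLC30A10. The interval of SLC39A4 (-1.53 to -0.45) overlapped that of MT1X (-1.82 to -1.30), the called metallothionein with the smallest fall. Of the 19 tested transporters, 17 had an interval that held 0, SLC39A4 and SLC39A7 being the exceptions. Every CFIm25-m sample was below both controls in 3 of the 19 and above in 1, beside the 19.8% and 17.0% of all tested genes given above.

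**Figure D4:**
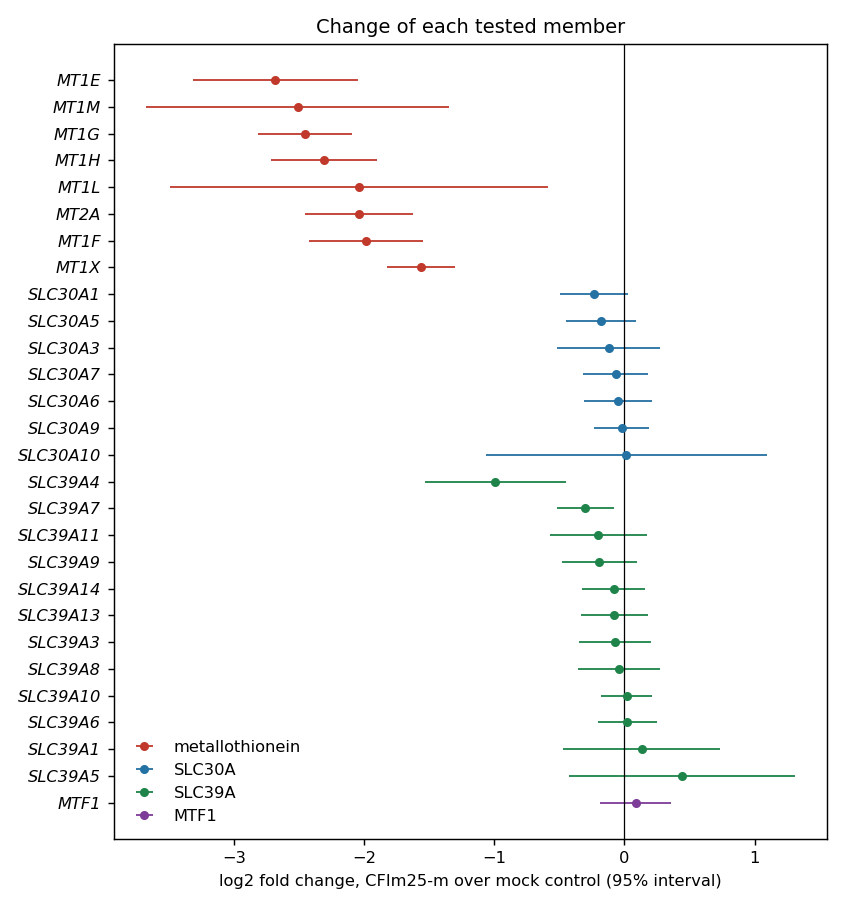
Log2 fold change of CFIm25-m (n = 3) over mock control (n = 2) for the 28 tested members, with points for the limma-trend estimate and lines for the unadjusted 95% interval, grouped as metallothioneins, SLC30A, SLC39A and MTF1. The metallothioneins run from -2.68 to -1.56 and the transporters from -0.99 (SLC39A4) to 0.44 (SLC39A5).

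Other genes of zinc, metal and stress handling were examined as lists of known genes. Of 10 other zinc handling genes, 8 were tested and 0 were called by limma-trend, and 0 had an unadjusted p under 0.05. These included CBWD1, a relative of the zinc metallochaperones, at a log2 change of -0.14. ZNF658, a zinc-responsive repressor, was at 0.03. Of 13 genes of the metal and oxidative stress response, all were tested and 0 were called, with 2 (GCLC and KEAP1) at an unadjusted p under 0.05. HMOX1, heme oxygenase, which metals strongly induce, had 233 and 231 in mock control and 217, 255 and 186 in CFIm25-m. NQO1 had a log2 change of 0.00 and GCLC, a subunit of the enzyme that makes the glutathione precursor, of -0.23.

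Of 12 copper handling genes, 10 were tested and 0 were called, with 0 at an unadjusted p under 0.05. The copper importer SLC31A1 had a log2 change of -0.23 (adjusted p = 0.361, limma-trend), and the copper exporters ATP7A and ATP7B had -0.04 and 0.05. Of 14 iron handling genes, 13 were tested and 0 were called, with 3 at an unadjusted p under 0.05. These 3 were the transferrin receptor TFRC at -0.42 (adjusted p = 0.145), ferritin light chain FTL at -0.43 (adjusted p = 0.179) and ferritin heavy chain FTH1 at -0.35 (adjusted p = 0.26). In all 3 every clone was below both controls. Over the list this was so in 6 of 13 genes, and every clone was above both controls in 2, beside 19.8% and 17.0% of all tested genes. DESeq2 and edgeR called 0 genes of these 4 lists.

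Glucocorticoids also induce metallothionein genes, so 9 genes of the glucocorticoid response were examined. All 9 were tested, 1 was called lower and 0 higher. The gene called was NR3C1, the glucocorticoid receptor itself, with 186 and 183 in mock control and 108, 104 and 111 in CFIm25-m. Both groups were tight and far apart. The log2 fold change was -0.77 (95% interval -1.14 to -0.40, adjusted p = 0.0494, limma-trend), and the call was lost in 12 of 16 other settings, over which the adjusted p ran from 0.00157 to 0.53. Established glucocorticoid targets did not pass the threshold, with FKBP5 at 0.05, TSC22D3 at 0.30 and PER1 at -0.01. ZBTB16, a low target with 1.00 to 13.8 over the samples, was at -1.06 (95% interval -2.72 to 0.61). SGK1, another target, was at 0.49 (adjusted p = 0.0738), with every clone higher than both controls. DESeq2 called 2 genes of this list, NR3C1 and SGK1, and edgeR called 0. Whether the level of NR3C1 has a part in that of the metallothioneins was not tested.

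The edited gene and the metallothionein cluster are neighbours. On hg38, 13 of the 16 metallothionein rows, and all 8 that were tested, lie within 95.1 kb of chromosome 16, from 56589074 to 56684196. NUDT21 starts 137 kb before the cluster, at 56452199 on the minus strand. The 3 remaining rows, MT1HL1, MT1XP1 and MT1P1, lie on chromosomes 1 and 9 and were too low to test. Position and family therefore cannot be told apart among the tested metallothioneins.

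The genes around them were set beside the cluster. Apart from the metallothioneins and NUDT21, 26 genes that lie within 1 Mb of the cluster were tested. Of these, 0 were called by limma-trend, DESeq2 or edgeR and 4 had an unadjusted p under 0.05, a share near the 15.1% of all tested genes, and their median log2 fold change was -0.03. BBS2, a cilium gene between NUDT21 and the cluster, had 716 and 715 in mock control and 669, 624 and 563 in CFIm25-m, a log2 change of -0.21 (adjusted p = 0.407, limma-trend). OGFOD1, which starts within 1 kb of NUDT21 on the opposite strand, had 0.03.

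On the other side of the cluster, NUP93, a nuclear pore gene, had 3800.1 and 3792 in mock control and 3256, 3589 and 3137 in CFIm25-m, a log2 change of -0.19 (adjusted p = 0.369, limma-trend). All clones were slightly below the controls. HERPUD1 had 0.05, NLRC5 had 0.02 and CPNE2 had -0.47 (adjusted p = 0.098). The low transcript AC009090.4 had 0.08, with an interval from -1.28 to 1.43. AC009102.2, a low transcript beyond NUDT21 on the near side, had -0.10. SLC6A2, the noradrenaline transporter, was the exception in size among the 26, at -1.52 (adjusted p = 0.206) with 25.4 and 26.1 in mock control and 11.0, 3.60 and 13.5 in CFIm25-m. It was named after its values were seen.

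**Figure D5:**
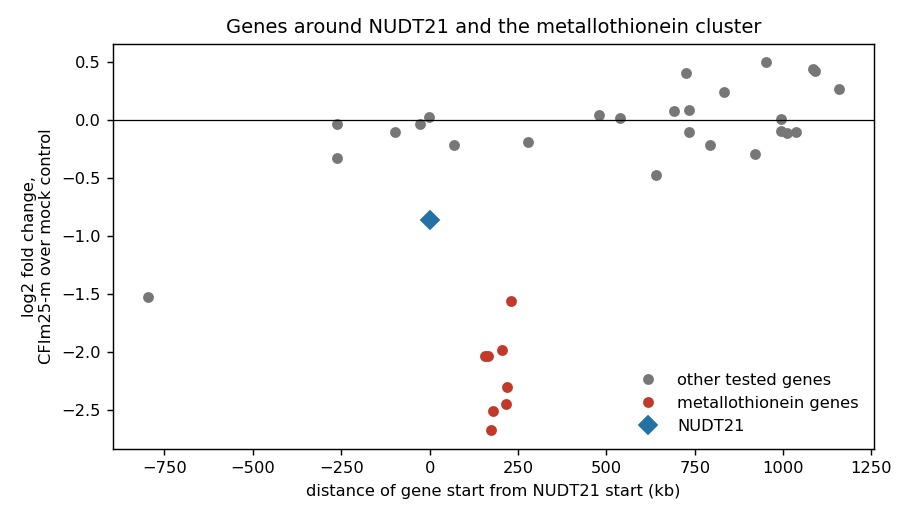
Log2 fold change of CFIm25-m over mock control against the distance of each gene's start from the start of NUDT21 (kb, positive towards the metallothionein cluster), for tested genes within 1 Mb of the cluster. The 8 metallothioneins lie between 156 and 230.2 kb at -2.68 to -1.56, NUDT21 is at 0 kb and -0.86, and the other tested genes lie between -0.47 and 0.50 apart from SLC6A2 at -1.52.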

How the data were processed

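Poly(A+) RNA-seq of 2 mock control and 3 CFIm25-m samples was used, grouped by the labels. The deposited values are a normalised signal, reads per gene divided by a size factor of the sample. The submitters' processing notes name HISAT2, featureCounts, Subread, DESeq2 and the build hg38; versions, strand setting and treatment of multimapping reads were not given in the sources used here. The authors' group means, fold changes and p-values in the same table were not used. Every value was a whole multiple of 1 read (100% within 0.01 reads), so whole reads could be recovered.

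Values were tested as log2(value + 1) with limma-trend (limma 3.58.1, R 4.3.3) on all 5 samples, with genes reaching 10 in at least 2 samples and Benjamini-Hochberg adjustment over all of them. Fold changes are on that scale and understate changes of low genes. The fit was run on simulated counts with known changes, and the check covered only their recovery and direction. The simulation had no clones as replicates, so it cannot tell the rate of false calls in these data. edgeR 4.0.16 (quasi-likelihood) and DESeq2 1.42.0 on whole reads, other scalings, filters, pseudocounts and variance models, and leaving out each sample were alternatives. Single values were compared with exact permutation tests (scipy 1.17.1).

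All 40 members were reported by value, low ones by range, with counts, called genes and at most 3 others of each list, and the 5 tested genes on each side of the cluster, of which 1 is not reported here. KEAP1, SGK1, ZBTB16, SLC6A2 and the single markers of other cell types were named beyond this, after their values were seen. Members and lists were chosen with earlier results of these data known. Promoters are from RefSeq (GRCh38.p14) and transcripts from GENCODE release 44 mapped to GRCh37, whose coordinates were not used. Counts of reads limit the precision of low genes, and no interval printed covers more than the spread between samples.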

Additional observations from a re-analysis of the deposited data

How the results depend on the processing

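Across the other settings 6 or 7 metallothionein genes were called lower, except without the mean-variance trend, where 3 (MT1G, MT1H and MT1X) were. Leaving out each sample gave 6 to 7. The sum of the family had a log2 ratio of -2.10 and ran from -2.20 to -1.96 when each sample was left out. For transporters and MTF1 the count of 0 became 1 with DESeq2 (SLC39A4) and 0 to 1 when each sample was left out. For the other metal and stress lists the count of 1 (NR3C1) became 0 with TMM scaling, no filter, a filter at 50, a pseudocount of 5, no mean-variance trend, voom and edgeR, 2 with DESeq2 (NR3C1 and SGK1), 1 but another gene (SGK1) with upper-quartile scaling, and 0 to 4 when each sample was left out. Over all genes, 361 calls became 46 without the trend, 628 with DESeq2 (279 lower and 349 higher) and 60 to 1069 when each sample was left out, the highest without CFIm25-m 3 and the lowest without mock control 2. The cause of these shifts was not tested. DESeq2 gave no adjusted p for MT1L and MT1M.

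No called metallothionein changed direction. Transporters near zero did, none of them called in either direction. With upper-quartile scaling SLC30A9 was at 0.0200 and SLC39A8 at 0.0011. Over the fits that left out each sample, the log2 fold change ran from -0.27 to 0.43 for SLC30A10, from -0.28 to 0.0347 for SLC30A3, from -0.21 to 0.10 for SLC30A6, from -0.0701 to 0.0211 for SLC30A9, from -0.13 to 0.39 for SLC39A1, from -0.0187 to 0.0491 for SLC39A10, from -0.13 to 0.0052 for SLC39A13, from -0.15 to 0.0074 for SLC39A3, from -0.0332 to 0.0758 for SLC39A6 and from -0.11 to 0.0709 for SLC39A8.

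The labels give both groups the numbers 1 and 2. Deviations of same-numbered samples from their group means had correlations of 0.0072 and 0.018, so the numbers were not taken as pairs. With a replicate block, CFIm25-m 3 has a number that no control shares, so it adds nothing to the contrast. The log2 fold changes of that fit equal those without CFIm25-m 3. The blocked fit called 2107 genes, among them 7 metallothioneins, 2 transporters (SLC39A4 and SLC39A7) and 5 genes of the other lists. SLC30A10 was at -0.27 and SLC30A9 at 0.0211. With 2 control samples and clones as replicates, the spread of each gene has 3 residual degrees of freedom in the main fit. The limma-trend fit then draws it towards a trend over all tested genes. Genes below about 10 reads could not be assessed.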
